A study of Mus musculus with 24 samples.

Results

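Collagens are the structural proteins of the extracellular matrix, and each collagen molecule is a triple helix of 3 chains, which come from 1 gene or from several. Every gene on the array whose symbol has the form of a collagen chain (Col, a type number, a, a chain number) was taken, which gave 44 chains of the 21368 genes with a symbol. The rule read symbols and no measured value. Fibrillar chains form the load-bearing fibrils of tendon, bone, skin and interstitium, and fibril-associated chains decorate their surface. Type IV chains build the sheet of every basement membrane, type VI forms beaded filaments around cells, and the remaining types form anchoring fibrils, hexagonal networks, membrane-bound proteins or the basement membrane proteoglycans called multiplexins. In adult liver, heart and muscle most interstitial collagen RNA comes from fibroblasts and related stromal cells, whereas brain tissue holds little fibrillar matrix outside its meninges and vessels.

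The 24 one-colour Agilent arrays each measured 1 tissue of 1 female mouse, from 6 mice that each gave liver, brain, heart and skeletal muscle. Mice A, B and C carried the I312R knockin of Rap1 (gene symbol Terf2ip; labelled RAP1 MUT, here KI), a point mutation at the residue through which RAP1 binds the telomere protein TRF2. Mice D, E and F were wild type (WT). C and F were 14 months old and the other 4 mice were 15 months old. The line was made by CRISPR/Cas9 editing and was then crossed back to C57BL/6N mice 4 times, and the mutation is present in every cell. Each of the 8 groups therefore held 3 mice. Liver and brain RNA was extracted with one kit and heart and muscle RNA with a kit for fibrous tissue, so kit and tissue class cannot be told apart. The array does not read the point mutation, and genotypes are as labelled.

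The arrays shared 3 slides: all livers lay on the first, all muscles on the third, and brains and hearts were spread over 2 slides each. The 75th percentile of the processed signal ranged from 312.4 to 2510.4 between arrays, and 49.4% to 68.4% of the probes were well above background. A level is the log2 processed signal relative to the 75th percentile of its array, so 0 is the level of the 75th percentile probe and a step of 1 is a doubling. A level may be compared between samples for 1 chain, never between chains. Each defining gene of liver (Alb, Apoa1), heart (Myh6) and skeletal muscle (Myh4) was highest in its labelled tissue on all arrays of that tissue. The neuronal gene Snap25 was less selective, with 6.33 to 6.69 in brain and 5.79 to 6.81 in heart, while Mbp of myelin was at 2.69 to 3.38 in brain and at 1.83 or below elsewhere.

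Several libraries held transcripts of a neighbouring tissue. In the muscle of KI mouse B and WT mouse D the bone gene Ibsp was at -0.46 and -0.14, against -4.59 or below in the other 4 muscles. The muscle of KI mouse B also held epithelial keratin Krt5 at 1.65, against -2.90 or below in the others. The atrial light chain Myl7 was at 7.44 in the heart of KI mouse B and at 4.28 in that of WT mouse E, with 0.19 or below in the other hearts. The brain of KI mouse C held Alb at 6.54, and the liver of KI mouse C held the muscle myosin Myh4 at 1.48, against -5.64 or below in the other livers. Leaving out the 2 muscles with bone and the 2 hearts with atrial transcripts moved some called differences by over 1.5 times, and for chains named with such a difference both values are given.

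Sequence upstream of the start was available for 35 of the 44 chains, in 38 windows of 250 bases, from the RefSeq promoter table of build GRCm38.p6. The windows below are those of 2 interstitial fibril chains, of Col18a1, the chain called highest in liver, and of the neighbours Col4a5 and Col4a6, whose tissue orders are set side by side further on. Capitals mark CCAAT (read as ATTGG from the other strand), TATAAA (read as TTTATA) and GGGCGG (read as CCGCCC), and each sequence ends at the base before the start. Col1a2 (chr6:4505368-4505617, plus strand) and Col3a1 (chr1:45311288-45311537, plus strand) encode interstitial fibril chains:
Col1a2: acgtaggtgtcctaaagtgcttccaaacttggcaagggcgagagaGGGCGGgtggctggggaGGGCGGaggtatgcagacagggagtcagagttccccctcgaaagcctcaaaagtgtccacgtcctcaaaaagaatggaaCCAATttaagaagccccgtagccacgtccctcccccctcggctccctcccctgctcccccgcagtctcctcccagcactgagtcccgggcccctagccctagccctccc
Col3a1: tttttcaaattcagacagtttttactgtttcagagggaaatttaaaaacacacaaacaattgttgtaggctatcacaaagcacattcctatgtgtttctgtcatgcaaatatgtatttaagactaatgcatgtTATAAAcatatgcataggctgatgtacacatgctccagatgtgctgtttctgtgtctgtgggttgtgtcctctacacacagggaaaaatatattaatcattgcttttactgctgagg
Col18a1 has 2 starts, 52825 bases apart on the minus strand, at chr10:77166531-77166780 and chr10:77113706-77113955:
Col18a1 first window: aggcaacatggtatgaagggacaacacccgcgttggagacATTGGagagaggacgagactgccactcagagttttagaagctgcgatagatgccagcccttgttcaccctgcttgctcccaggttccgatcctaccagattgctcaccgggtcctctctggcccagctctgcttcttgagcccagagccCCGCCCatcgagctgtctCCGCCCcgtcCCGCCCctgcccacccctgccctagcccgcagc
Col18a1 second window: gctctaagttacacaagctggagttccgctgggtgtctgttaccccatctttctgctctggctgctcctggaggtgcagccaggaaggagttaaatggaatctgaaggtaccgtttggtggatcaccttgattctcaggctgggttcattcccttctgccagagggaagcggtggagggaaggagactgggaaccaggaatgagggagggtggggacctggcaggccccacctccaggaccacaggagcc
Col4a5 (chrX:141475169-141475418, plus strand) and Col4a6 (chrX:141474077-141474326, minus strand) lie head to head, with starts 1343 bases apart:
Col4a5: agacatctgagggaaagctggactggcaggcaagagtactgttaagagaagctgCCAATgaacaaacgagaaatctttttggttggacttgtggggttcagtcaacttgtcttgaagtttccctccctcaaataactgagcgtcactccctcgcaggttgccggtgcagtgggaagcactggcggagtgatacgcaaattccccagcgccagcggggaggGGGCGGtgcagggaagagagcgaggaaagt
Col4a6: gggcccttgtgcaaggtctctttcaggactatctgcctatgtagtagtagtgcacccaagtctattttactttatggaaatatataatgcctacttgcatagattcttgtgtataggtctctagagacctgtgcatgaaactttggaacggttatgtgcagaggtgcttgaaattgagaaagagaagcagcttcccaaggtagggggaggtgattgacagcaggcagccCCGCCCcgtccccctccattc
The Col1a2 window held CCAAT 109 bases before the start and GGGCGG at 205 and 188, and the Col3a1 window held TATAAA at 117 and neither of the others. The upper Col18a1 window held CCGCCC at 61, 43 and 33 bases before the start, whereas the lower one held none of these letters. Over both strands, 22 of the 38 collagen windows (57.9%) held GGGCGG, against 32.7% of all 32851 windows in the table. CCAAT was in 13 (34.2%) against 33.8%, TATAAA in 5 (13.2%) against 12.4%, and CANNTG, the E-box core, in 19 (50%) against 66.2%. These are counts of letters, and an absent match says only that the letters are not in that window.

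Of the 44 chains, 36 were well above background on all 6 brain arrays, against 30 in heart, 29 in muscle and 21 in liver. Over all 21368 genes with a symbol brain also came first, with 15591, against 14403 in heart, 13018 in muscle and 13362 in liver. In all 4 tissues together, 20 chains were well above background on all 24 arrays and 3 on none: Col6a5, Col13a1, a membrane collagen of the neuromuscular junction, and Col28a1. Col10a1, the chain of hypertrophic cartilage, was well above background on 2 brain arrays, and Col6a6 on 2 heart arrays. A dimmer Col6a6 probe was well above background on 5 hearts and on no array of another tissue. By the probe used for each, these 5 chains did not pass the filter, which asked for all 3 arrays of a group. They were not tested, which left 39. The highest tissue mean was in heart for 14 of the 39, in muscle for 11, in brain for 10 and in liver for 4.

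**Figure D1:**
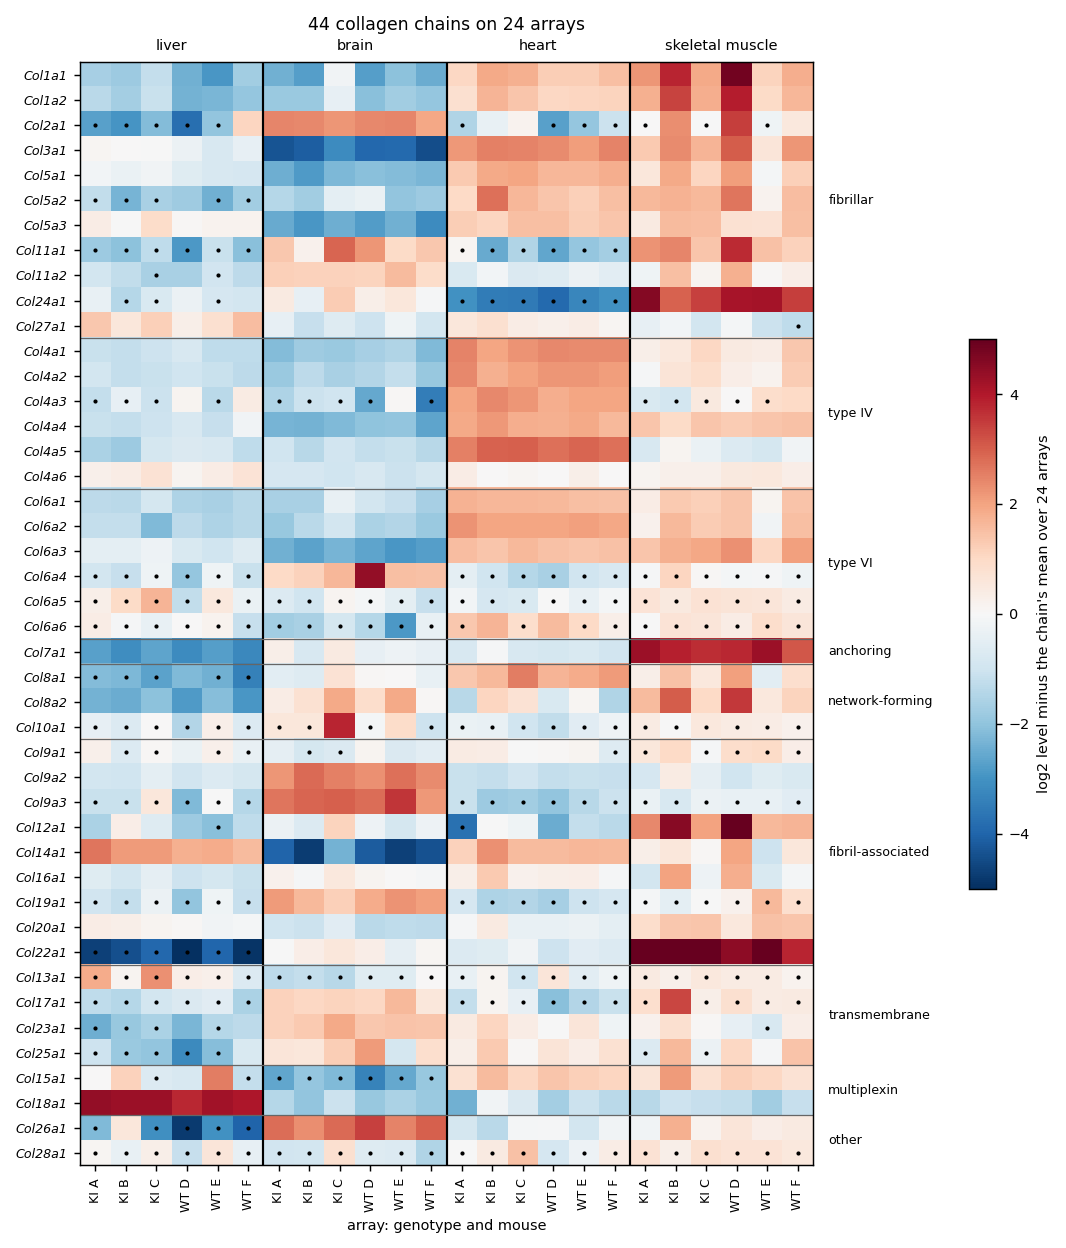
Level of each of the 44 collagen chains (vertical axis, grouped by role) on each of the 24 arrays (horizontal axis, by tissue and genotype), as log2 level minus the mean of that chain over all 24 arrays, with colours capped at 5 in either direction. Black dots mark arrays where the probe was not well above background. Col18a1 stands out in liver, where it reached 6.13 to 6.75, and Col22a1 and Col7a1 in muscle.

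All 39 tested chains differed between tissues in the moderated F-test of limma with Benjamini-Hochberg adjustment, as did 97.6% of all genes tested, so that count says little about collagens. For a pair of tissues, a chain was called when its adjusted p was under 0.05 and its difference was at least 1 on the log2 scale. Between heart and liver 22 of 32 chains were called higher in heart (27.6% of all genes) and 1 in liver (24.2%). Between muscle and liver 24 of 32 were called higher in muscle (29.1% of genes) and 3 in liver (27.7%). Heart exceeded brain in 19 of 39 chains (28.8% of genes), and brain exceeded heart in 12 (25.4%). Muscle exceeded brain in 21 of 38 (31.2%) and brain exceeded muscle in 6 (27.6%). Brain exceeded liver in 16 of 37 (30.2%) and liver exceeded brain in 10 (31.9%). Heart and muscle were nearest, with 8 of 34 chains higher in heart (17.6%) and 9 in muscle (13.9%).

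The median difference of the tested chains between heart and liver was 2.20, against 0.07 over all genes. Between muscle and liver it was 2.16 (all genes 0.09), between muscle and brain 1.67 (0.20), and between heart and brain 0.90 (0.16). Between liver and brain it was -0.55 (0.16), and between heart and muscle 0.06 (-0.01). Counts of chains called higher than in each other tissue were 6 of 32 for heart (5.02% of genes), 6 of 32 for muscle (7.67%), 6 of 37 for brain (17.2%) and 1 of 29 for liver (17.2%). Among the brain chains, Col6a4, Col9a3 and Col19a1 were well above background in brain only, and Col4a3 passed the filter through heart only. Such a chain enters the test through that tissue, so its direction was set by the filter. The shares of genes carry the same filter. Liver was called lower than each other tissue for 7 of 29 chains (11.8% of genes) and brain for 7 of 37 (11.6%). Every one of the 29 chains tested in all pairs was called in at least 1 of them, whereas 15.9% of genes were called in none. In bulk tissue a lower level can stand for fewer cells of a type or for less RNA per cell, and these cannot be told apart.

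**Figure D2:**
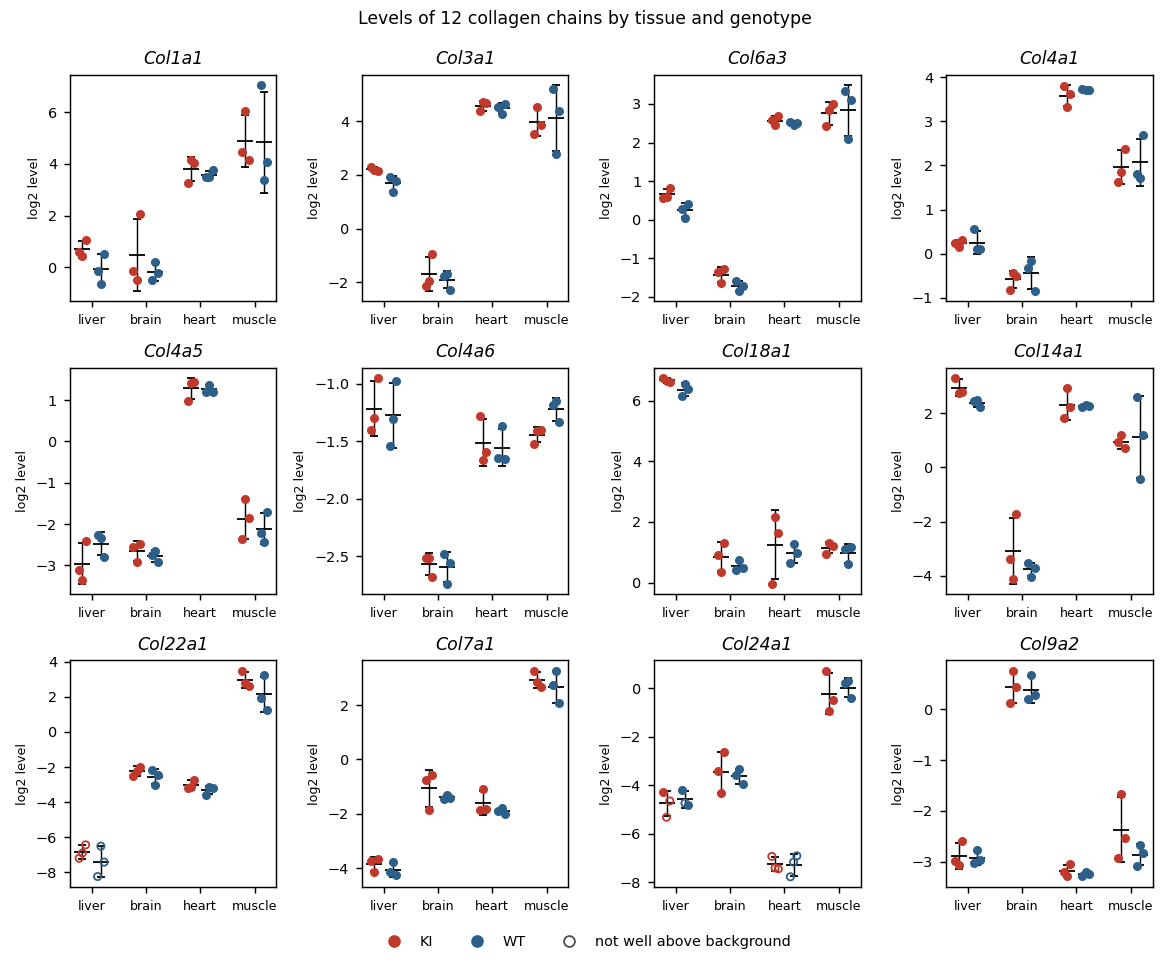
Log2 level relative to the array's 75th percentile (vertical axis) of 12 chains in the 4 tissues (horizontal axis). Each point is 1 array, red for KI and blue for WT, open where the probe was not well above background, and bars are the mean ± SD of 3 mice. The KI and WT points of Col18a1 lie at 6.13 or above in liver and at 2.17 or below elsewhere, and those of Col4a5 at 0.99 or above in heart and at -1.39 or below elsewhere.

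Among fibrillar chains, the interstitial collagens I, III and V were high in heart and muscle. Col1a1, a chain of collagen I in bone, tendon and skin, was between 3.28 and 4.14 in heart (median 3.63) and between 3.37 and 7.07 in muscle (median 4.32). In liver it lay between -0.64 and 1.06 (median 0.48), and in brain between -0.51 and 2.07 (median -0.18). Heart and muscle therefore overlapped, and both lay above every liver and brain array. Muscle exceeded brain by 4.72 ± 0.53 (SE, n = 6 arrays per tissue), 26.4-fold, and by 3.87 ± 0.41 without the 4 arrays with bone or atrial transcripts. Heart exceeded liver by 3.39 ± 0.53. The heart and muscle levels did not differ past the threshold (limma adjusted p = 0.056), nor did liver and brain (difference 0.15 ± 0.53).

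Its partner Col1a2 ranged from 4.91 to 7.89 in muscle (median 5.75) and from 4.76 to 5.65 in heart (median 5.04). Liver arrays lay between 1.60 and 2.82 (median 2.13) and brain arrays between 1.85 and 3.55 (median 2.09). Muscle exceeded liver by 4.04 ± 0.40, 16.5-fold, and by 3.34 ± 0.26 without the same 4 arrays. Muscle was also called over heart, by 1.06 ± 0.40, but this call was easily lost. The difference became 0.46 the same way, with a limma adjusted p of 0.169, without the 2 muscles with bone and the 2 hearts with atrial transcripts. The call was also lost without the heart of KI mouse A (heart minus muscle -0.94), without the muscle of KI mouse B (-0.80) or without the muscle of WT mouse D (-0.62). It was lost too with normexp correction, quantile normalization, the deposited values or the slide as a block, and in the KI or the WT arrays alone.

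Col3a1, the fibril chain of distensible tissues such as vessel wall, separated brain from the rest. It lay between -2.27 and -0.96 in brain (median -1.85) and between 1.37 and 2.29 in liver (median 2.03). It reached 4.27 to 4.71 in heart (median 4.60) and 2.79 to 5.21 in muscle (median 4.13). No brain array reached any other tissue, and heart lay within the range of muscle. The heart exceeded the brain by 6.32 ± 0.30, 80.1-fold, the widest range of tissue means of a fibrillar chain measured in all 4 tissues. Of the collagen V chains, which set fibril diameter, 2 had the same order. Col5a1 had a median of 1.70 in heart, 1.08 in muscle, -0.51 in liver and -2.30 in brain, and Col5a3 a median of 2.19, 2.02, 1.07 and -1.77. Col5a2 was well above background on 1 of 6 livers and on all 6 brains, and its liver and brain levels did not differ past the threshold (-0.55 ± 0.39). Heart exceeded brain by 2.88 ± 0.39 for Col5a2.

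The cartilage-type fibrillar chains did otherwise. Col2a1, the main collagen of cartilage, was between -2.42 and -1.91 in brain (median -1.96) and well above background on 1 liver, 2 hearts and 3 muscles. The measured heart minus brain difference was -3.55 ± 0.70, with 4 of 6 hearts not well above background. Col11a1 and Col11a2, partners of Col2a1 in cartilage fibrils, had a median of -4.01 and -2.05 in brain and of -3.49 and -2.96 in muscle. Col11a1 was well above background on no heart or liver, and its muscle mean was at least 4.37-fold higher than that of heart. The measured heart minus muscle difference was -3.77, and -3.00 without the 4 arrays with bone or atrial transcripts. Col27a1, another fibrillar chain of cartilage, was highest in liver, with a median of -1.89 there, -2.51 in heart, -3.55 in muscle and -3.68 in brain. Liver exceeded muscle by 1.60 ± 0.24 for Col27a1, while liver and heart differed by 0.55, under the size needed for a call.

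Col24a1, a fibrillar chain known from developing bone, was a muscle chain here. It lay between -0.93 and 0.71 in muscle (median -0.10), between -4.32 and -2.64 in brain (median -3.51) and between -5.32 and -4.19 in liver, where 3 of 6 arrays were well above background. On no heart was it well above background. Muscle was at least 39.4-fold higher than heart and 10.9-fold higher than brain (3.44 ± 0.30). All 6 muscles lay above every array of the other tissues.

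The type IV chains pair in fixed combinations: Col4a1 with Col4a2 in all basement membranes, and Col4a3, Col4a4, Col4a5 and Col4a6 in special ones. Heart was highest for 5 of the 6. Col4a1 lay between 3.32 and 3.81 in heart (median 3.71), between 1.63 and 2.69 in muscle (median 1.83), between 0.09 and 0.55 in liver (median 0.19) and between -0.85 and -0.16 in brain (median -0.47). Col4a2, whose start lies 21 bases from that of Col4a1 on the opposite strand, had a median of 3.64, 1.98, 0.39 and -0.06 in the same order. No array of one tissue overlapped the next tissue for Col4a1. Heart exceeded muscle by 1.64 ± 0.17 for Col4a1 and by 1.58 ± 0.19 for Col4a2, and exceeded brain by 4.17 ± 0.17 and 3.67 ± 0.19.

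Endothelial genes were also high in heart. All 6 of the 6 markers on the list (Pecam1, Cdh5, Kdr, Tie1, Emcn, Esam) were called higher in heart than in liver (27.6% of genes) and brain (28.8%). Against muscle 3 of 6 were called higher in heart (17.6%). Their summed level, the log2 of the added linear levels, was 5.14 to 5.72 in heart. It was 4.19 to 4.79 in the muscles, 3.53 to 4.18 in the livers and 1.92 to 2.03 in the brains. All 6 were well above background on every array. Their part in the type IV differences was not tested.

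Col4a5 was highest in heart. It lay between 0.99 and 1.45 in heart (median 1.29), and no array of another tissue exceeded -1.39. Heart exceeded muscle by 3.27 ± 0.18, 9.63-fold, and liver and brain by 3.99 ± 0.18 each. Between liver and brain the difference was 0.00 ± 0.18. Its head-to-head neighbour Col4a6 followed another order, with -1.66 to -1.28 in heart (median -1.62), -1.52 to -1.15 in muscle (median -1.37) and -1.54 to -0.95 in liver (median -1.30). The brain was lower, between -2.74 and -2.48 (median -2.53), and liver exceeded it by 1.33 ± 0.11. Heart and muscle, and muscle and liver, did not differ past the threshold for Col4a6. A second, dimmer Col4a6 probe had the highest mean in heart, -1.03, against -4.59 in liver, -3.09 in brain and -3.21 in muscle. The probes therefore disagree on this chain's tissue order, and its order holds for the brighter probe only.

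Col4a3 was well above background on all 6 hearts, between -3.46 and -2.89 (median -3.30), and on 2 livers, 1 brain and 1 muscle. The measured heart minus muscle difference was 1.94 ± 0.45, with 5 of 6 muscles not well above background. It was 1.29 and not called in the WT arrays alone, 0.16 and not called with normexp background correction, 0.56 and not called with the deposited values, and 2.59 in the KI arrays alone. Col4a4, which shares trimers with Col4a3 and Col4a5, had a median of 0.61 in heart and of 0.14 in muscle, and the difference of 0.54 ± 0.15 was under the size for a call. In liver its median was -2.32 and in brain -3.51, and heart exceeded brain by 4.11 ± 0.15. A dimmer Col4a4 probe had about the same mean in liver (-3.77) and heart (-4.06) and was well above background on no muscle, again a different order.

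The main type VI chains, Col6a1, Col6a2 and Col6a3, assemble into the filaments around muscle fibres and their loss causes muscular dystrophy. Each was higher in heart and muscle than in liver and brain. Col6a1 lay between 4.05 and 4.31 in heart (median 4.22), between 2.73 and 4.00 in muscle (median 3.83), between 0.97 and 1.70 in liver (median 1.21) and between 0.91 and 2.21 in brain (median 1.19). Col6a2 had a median of 1.21 in heart, 0.55 in muscle, -2.11 in liver and -2.29 in brain. Heart exceeded muscle by 1.05 ± 0.28 for Col6a2, a call lost without the muscle of KI mouse A (0.85) or WT mouse E (0.79). That call was also lost with the slide as a block or the deposited values, and in the KI arrays alone. Col6a3 had a median of 2.93 in muscle, 2.53 in heart, 0.49 in liver and -1.61 in brain, and muscle exceeded brain by 4.37 ± 0.16, 20.6-fold. Liver and brain did not differ past the threshold for Col6a1 (-0.12 ± 0.24) or Col6a2 (0.05 ± 0.28), but they did for Col6a3 (2.02 ± 0.16).

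Col6a4, a mouse chain related to Col6a3, was well above background in brain only. Brain arrays lay between -5.34 and -1.94 (median -4.85), and the -1.94 came from WT mouse D alone. Brain was at least 1.92-fold higher than heart and at least 1.51-fold higher than liver. Against muscle the measured difference was 1.75 ± 0.42, but the higher detection limit of the muscle arrays leaves no bound above 1. A second Col6a4 probe was well above background on no array.

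Col7a1, the anchoring fibril chain that fixes skin epithelium to the dermis, was called highest in muscle. It lay between 2.07 and 3.25 there (median 2.78), between -1.85 and -0.59 in brain (median -1.37), between -1.99 and -1.09 in heart (median -1.84) and between -4.26 and -3.68 in liver (median -3.95). No muscle array came near another tissue. Muscle exceeded liver by 6.75 ± 0.22, 108-fold, brain by 4.03 ± 0.22, 16.3-fold, and heart by 4.54 ± 0.22. The summed level of 9 skin and mammary epithelium genes was 4.49 in the muscle of KI mouse B and 0.30 to 1.25 in the other 5 muscles, all of which had Col7a1 in the range above.

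The network-forming chains Col8a1 and Col8a2, of vessel wall and the corneal basement membrane, had different orders. Col8a1 had a median of -1.65 in heart, -2.75 in muscle and -3.61 in brain, and was well above background on 1 liver. Heart exceeded muscle by 1.10 ± 0.36, and by 1.65 without the 4 arrays with bone or atrial transcripts. The call was lost without the heart of KI mouse C (0.92), the muscle of KI mouse A (0.98) or the muscle of WT mouse E (0.77). It was lost too with normexp correction or the deposited values, and in the KI or the WT arrays alone. Col8a2 had a median of -0.67 in muscle, -1.20 in brain, -2.36 in heart and -4.45 in liver, and muscle exceeded heart by 2.09 ± 0.53.

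Among the fibril-associated chains, Col22a1, which lies at the junction of muscle and tendon, ranged from 1.27 to 3.49 in muscle (median 2.69), from -3.00 to -1.97 in brain (median -2.33) and from -3.58 to -2.72 in heart (median -3.17). It was well above background on no liver. Muscle exceeded brain by 4.95 ± 0.31, 30.9-fold, and was at least 196-fold higher than liver. Col12a1, a fibril-associated chain of tendon and ligament, had a median of -0.36 in muscle, -2.85 in brain, -3.82 in heart and -4.00 in liver. Muscle exceeded brain by 3.12 ± 0.68, and by 2.15 ± 0.57 without the 4 arrays with bone or atrial transcripts. This call was lost with the slide as a block and with the deposited values, and all muscles lay on 1 slide. Col20a1 had a median of -0.68 in muscle, -1.96 in liver, -2.39 in heart and -3.22 in brain. Muscle exceeded liver by 1.08 ± 0.16, and without the muscle of WT mouse E the difference was 1.00, just under the size for a call. The call was also lost with normexp correction, quantile normalization or the deposited values, and in the KI arrays alone.

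Col14a1, which binds collagen I fibrils, was the fibril-associated chain with the largest level difference of liver over brain. It lay between 2.22 and 3.30 in liver (median 2.62), between 1.81 and 2.92 in heart (median 2.25), between -0.41 and 2.61 in muscle (median 1.06) and between -4.11 and -1.73 in brain (median -3.63). Liver exceeded brain by 6.08 ± 0.40, 67.6-fold, and muscle by 1.63 ± 0.40, but did not differ from heart past the threshold. Col16a1 spanned less, with a median of 1.84 in heart, 1.62 in brain, 1.37 in muscle and 0.65 in liver. Its call of muscle over liver, 1.13 ± 0.42, was 0.33 without the 4 arrays with bone or atrial transcripts.

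Of the collagen IX chains, which coat cartilage fibrils, Col9a2 and Col9a3 were highest in brain, and the probes of Col9a1 disagreed. Col9a2 lay between 0.11 and 0.75 in brain (median 0.36), and no array of another tissue exceeded -1.67. Brain exceeded muscle by 3.03 ± 0.17 and heart by 3.62 ± 0.17. Col9a3 lay between -3.68 and -2.29 in brain (median -3.02) and was well above background on no array of the other tissues. Brain was at least 5.25-fold higher than heart, 4.13-fold higher than liver and 2.75-fold higher than muscle for Col9a3. By its brightest probe, their partner Col9a1 was well above background on 2 livers, 4 brains, 5 hearts and 1 muscle. The brain mean of this probe, -5.47, was the lowest of the 4 tissues. The muscle arrays had a higher detection limit than the brain arrays, so the order from this probe is uncertain. Muscle minus brain was 1.13 ± 0.22, and 0.97 and not called without the 4 arrays with bone or atrial transcripts. A dimmer Col9a1 probe was well above background on all 6 brains and had its highest mean there (-3.79). Col19a1, known from cortical interneurons, was well above background in brain only, between -5.09 and -4.04 (median -4.34), and was at least 1.95-fold higher there than in heart.

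Of the membrane-bound chains, Col23a1 was highest in brain, with a median of -2.02 there, -2.97 in heart, -3.26 in muscle and -5.14 in liver. Brain exceeded heart by 1.03 ± 0.24, near the size for a call, and the call was lost without any of 5 single arrays (differences of 0.92 to 0.99). It was lost too with normexp correction, the mean of all probes, the slide as a block or the deposited values, and in the KI arrays alone. Col17a1, which anchors epithelial cells at hemidesmosomes, lay between -5.11 and -4.05 in brain (median -4.61) and was well above background on no heart or liver. In muscle it was well above background only in KI mouse B (-2.35), the library with Krt5. Col25a1, the membrane collagen found in amyloid plaques, had nearly the same median in brain (-3.14), heart (-3.36) and muscle (-3.37) by its brightest probe. Of its 3 dimmer probes, 2 were well above background on all 6 brains and on no array of another tissue. Col26a1, known from testis and ovary, lay between -1.06 and 0.01 in brain (median -0.58) and between -3.58 and -1.63 in muscle (median -3.01), and brain exceeded muscle by 2.28 ± 0.48.

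Col18a1, a basement membrane multiplexin whose end is released as endostatin, was the only chain called higher in liver than in each of the other 3 tissues. It lay between 6.13 and 6.75 in liver (median 6.58), between -0.04 and 2.17 in heart (median 1.13), between 0.60 and 1.30 in muscle (median 1.15) and between 0.35 and 1.29 in brain (median 0.61). The liver arrays were separated from every other array. Liver exceeded heart by 5.40 ± 0.27, 42.1-fold, and brain by 5.80 ± 0.27, 55.9-fold. Muscle minus liver was -5.45 ± 0.26, a 43.8-fold difference. The other 3 tissues did not differ from each other past the threshold. A second Col18a1 probe gave a mean of 6.83 in liver and of -0.22 to 0.63 elsewhere, the same split. The promoter windows of its 2 starts are printed above, and the array does not say which start is used. Col15a1, the other multiplexin, had a median of -3.23 in heart and -3.45 in muscle and was well above background on 4 livers and no brain. Heart was at least 8.46-fold higher than brain for this chain. These values are those of its brightest probe. The dimmer Col15a1 probes had a mean of -2.40 and -3.38 in heart and of -4.13 and -5.23 in muscle. They were well above background on 2 and 0 muscles, 6 and 3 livers and 1 and 0 brains.

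Within a tissue, collagen levels varied more between mice than most genes did. The median SD of the chains over the 6 arrays was 0.66 in muscle, against 0.26 over all genes, 0.37 in brain (0.20), 0.30 in liver (0.23) and 0.26 in heart (0.21). Of the chains well above background on all 6 muscles, 12 of 29 were highest in WT mouse D, whose muscle was highest for 7.60% of genes, and 14 of 29 were lowest in WT mouse E (16.1% of genes). Of those in the heart, 17 of 30 were highest in KI mouse B (20.6% of genes), and of those in the brain 19 of 36 in KI mouse C (16.1%). Of those in the liver, 10 of 21 were highest in KI mouse C (24.6% of genes).

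**Figure D3:**
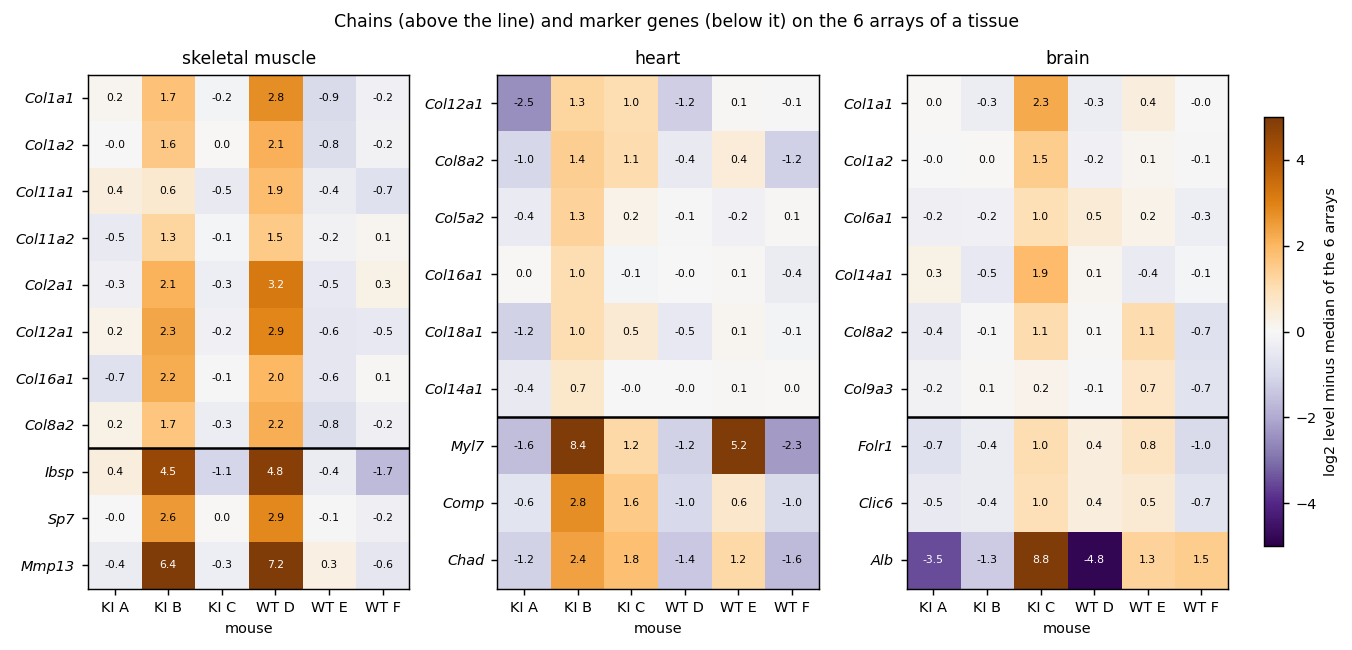
Collagen chains (above the line) and marker genes (below it) in muscle, heart and brain, with 1 column per mouse. Colour and the printed number give the log2 level minus the median of the 6 arrays of the tissue, with colours capped at 5 in either direction. The muscles of KI mouse B and WT mouse D, the heart of KI mouse B and the brain of KI mouse C stand above the other arrays for several chains and for the markers beside them.

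In muscle several chains moved with the bone genes. The summed level of the 9 cartilage, bone and tendon genes listed, all on the array, was 4.94 in KI mouse B, 4.90 in WT mouse D and 3.98 to 4.59 in the other 4 muscles. Col1a1 was 6.06 in KI mouse B and 7.07 in WT mouse D, and 3.37, 4.09, 4.16 and 4.47 in the others. Col12a1 was 1.98 and 2.54 in these mice and -0.16 or below in the others. Col2a1 was -2.02 and -0.89, against -3.84 or below, and Col16a1 was 3.56 and 3.36, against 1.44 or below. Mmp13, a collagenase of bone and cartilage, was 0.53 and 1.33 in these mice and -5.59 or below elsewhere. Ctsk, the collagen-degrading protease of osteoclasts, was 3.49 and 3.81, against 1.15 or below. Without these 2 muscles and the 2 hearts with atrial transcripts, 8 calls in tissue pairs changed. Those lost were Col1a2 and Col11a2 in muscle over heart, Col16a1 in muscle over liver and Col9a1 in muscle over brain. Those gained were Col5a1 in heart over muscle (1.01), Col12a1 in brain over heart (heart minus brain -1.73), and Col11a2 and Col2a1 in brain over muscle (muscle minus brain -1.10 and -2.24). Not all chains followed the bone genes: Col22a1 was 2.78 and 1.96 in the same mice and 3.49, 2.61, 3.23 and 1.27 in the others. Nor did Col24a1, the chain known from developing bone, with -0.93 and 0.22 in KI mouse B and WT mouse D. It was 0.71, -0.47, 0.27 and -0.43 in the others.

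In the heart, Col18a1 was 2.17 in KI mouse B, 1.64 in KI mouse C and 1.27 in WT mouse E, against 0.99 or below in the other 3. Col8a2 was -0.93, -1.30 and -1.92 in these same mice and -2.79 or below in the others, and Col12a1 was -2.57, -2.79 and -3.74 against -3.90 or below. Myl7 was high in the hearts of KI mouse B and WT mouse E only, as given above. The tendon and cartilage genes Comp (4.19, 2.99 and 2.06) and Chad (0.09, -0.51 and -1.17) were highest in the hearts of KI mouse B, KI mouse C and WT mouse E. The summed level of the 9 genes was 4.51, 3.77 and 3.05 in these and 2.38 to 2.47 in the others. In the brain of KI mouse C, Col1a1 was 2.07, against 0.20 or below in the others, Col1a2 was 3.55 against 2.19 or below, and Col14a1 was -1.73 against -3.38 or below. That brain also held Alb, Krt5 (-0.14, against -3.69 or below) and Dcn of fibroblasts (3.94, against 3.26 or below). Col8a2 in brain ran from -0.13 in KI mouse C and -0.14 in WT mouse E, through -1.15 in D, -1.26 in B and -1.64 in A, to -1.94 in F. Folr1 and Clic6 of the choroid plexus had the same order over the 6 brains, with Folr1 at 2.46 in C and 0.46 in F. The summed level of the 8 meninges and choroid plexus genes listed ran from 3.35 in F to 4.58 in C. The part of these neighbouring tissues in the collagen levels was not tested beyond leaving the arrays out.

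The effect of the Rap1 mutation was asked in each tissue. No chain passed the threshold in any tissue with limma's test and Benjamini-Hochberg adjustment, and nor did any other gene. At an unadjusted p under 0.05 stood 7 of 22 chains in liver (11.8% of genes), 1 of 37 in brain (0.79%), 0 of 32 in heart (1.64%) and 0 of 32 in muscle (0.866%). The count of 0 in heart became 8 without the heart of KI mouse A, all higher in KI, and 2 with the slide as a block. In muscle it was at most 2 under any setting tried, and in brain it was 5 without the brain of KI mouse B. Here and below, shares of all genes are those of the fit with all arrays. Counts of chains with arrays left out or under other settings have no such share beside them, and are not read as results about collagens.

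In liver the 7 chains were all higher in KI (7.91% of genes were higher in KI at this level and 3.92% lower). They were the fibrillar Col1a1, Col1a2, Col3a1 and Col5a1, the fibril-associated Col14a1 and Col20a1, and Col6a3. Col5a1 was -0.18, -0.38 and -0.23 in KI mice A, B and C and -0.65, -0.84 and -0.88 in WT mice D, E and F, a difference of 0.52 ± 0.13 (SE, n = 3 mice per group, limma adjusted p = 0.339). Col1a2 was 2.59, 2.23 and 2.82 in KI and 1.60, 1.67 and 2.03 in WT, a difference of 0.78 ± 0.20 (limma adjusted p = 0.348). Col3a1 was 2.29, 2.19 and 2.16 in KI and 1.91, 1.37 and 1.77 in WT, a difference of 0.53 ± 0.17 (limma adjusted p = 0.396). For these 3 chains each KI liver lay above each WT liver.

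Col14a1 differed by 0.56, Col6a3 by 0.40 and Col20a1 by 0.35 without overlap, and Col1a1 by 0.78 ± 0.32 with overlap (0.58, 0.44 and 1.06 in KI, -0.14, -0.64 and 0.51 in WT). A dimmer probe, well above background on all 6 livers, gave a smaller difference for Col14a1 (0.18) and for Col20a1 (0.10). Groups did not overlap for 8 of 22 chains, all higher in KI (12.9% of genes higher, 6.88% lower), the others being Col18a1 and Col6a1. Of the 22 chains 18 had a difference above 0 (56.9% of genes), with a median of 0.31 against 0.05 over all genes. Of the type IV chains 2 of 5 were above 0. Col4a5 was -3.10, -3.36 and -2.41 in KI and -2.28, -2.35 and -2.80 in WT, a difference of -0.48 ± 0.28. Leaving out the liver of KI mouse C, which held muscle transcripts, left 6 of 24 chains at an unadjusted p under 0.05, of which 5 were higher in KI. In a single fit over all 24 arrays, which shares 1 spread between tissues, none of the 22 was at this level. With normexp correction 9 of 22 chains were at this level, with the mean of all probes 5 of 23 and with the deposited values 4 of 22. All of these were higher in KI.

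Genes around collagen were read the same way in liver, where 11.8% of all genes were at an unadjusted p under 0.05 and 7.91% were so and higher in KI. On the fibroblast list, Dcn, Lum and Dpt of the 5 tested genes were higher in KI at an unadjusted p under 0.05, by 0.57, 0.55 and 0.69. The summed fibroblast level, over 6 of 6 genes on the array, was 6.51 to 6.79 in KI and 5.75 to 6.43 in WT livers. That of endothelium was 3.76 to 4.18 in KI and 3.53 to 3.84 in WT, with 0 of 6 genes at this level. Among genes that make or cross-link collagen it was 6 of 22, with Adamts2, the procollagen N-proteinase, 0.85 higher and Loxl2, a cross-linking oxidase, 0.76 higher. Among breakdown genes it was 5 of 10, with the protease inhibitors Timp1, Timp2 and Timp3 higher by 0.83, 0.68 and 0.71. Among receptors it was 4 of 11, with Ddr2, a fibrillar collagen receptor kinase, 0.57 higher. Genes on the lists of other cell types at this level were Epcam (0.55) and Wfdc18 (0.39) of epithelium and Mbp (0.76) of myelin, higher in KI, and Slc47a1 of the meninges and choroid plexus list, at -0.41. All of the collagen-related and fibroblast genes at this level were higher in KI, and their limma adjusted p lay between 0.339 and 0.422. The part of these cell type genes in the collagen differences was not tested.

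**Figure D4:**
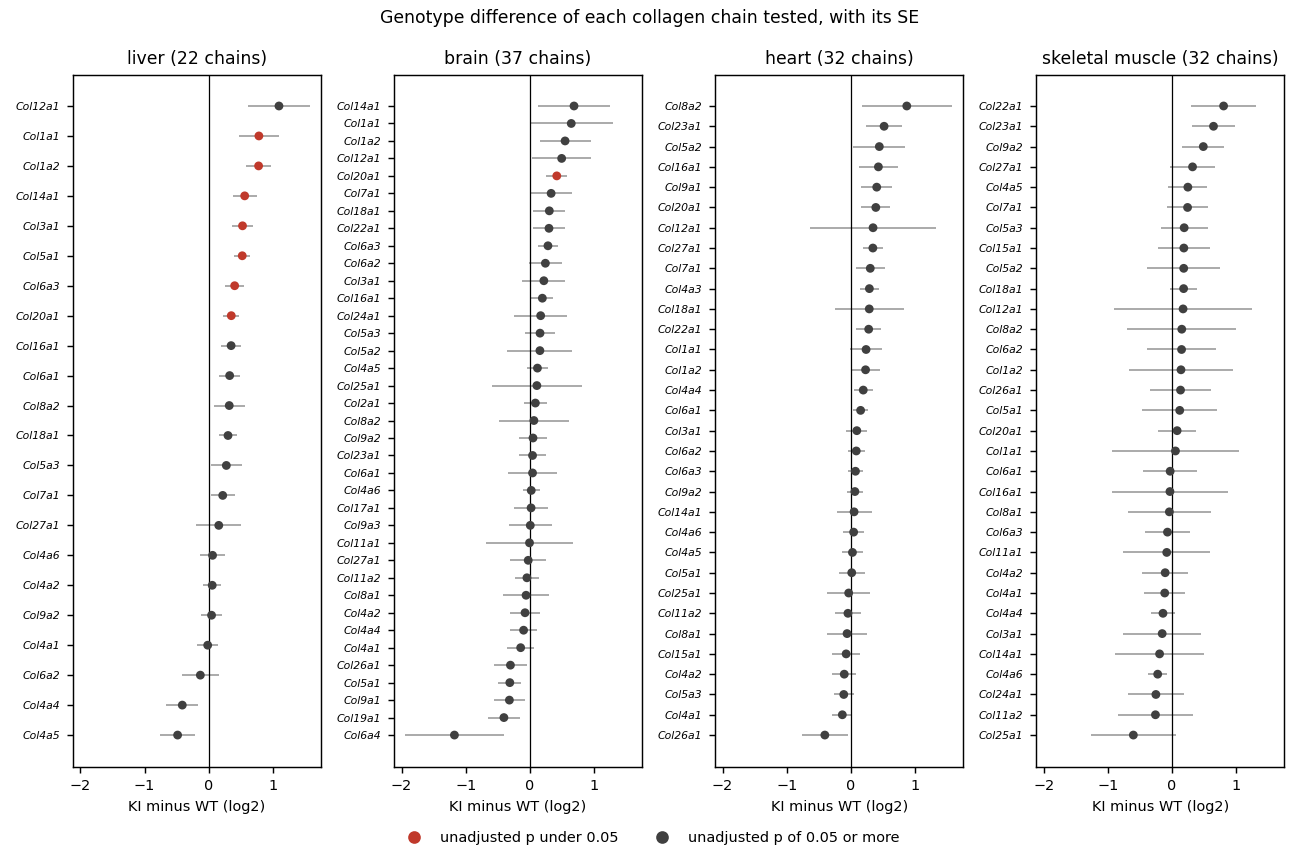
KI minus WT difference (log2, horizontal axis) of each tested chain (vertical axis) in each tissue, with its SE; n = 3 mice per group, and red marks an unadjusted p under 0.05. Red points are 7 in liver, all to the right of 0, and 1 in brain, and no point passed the adjusted threshold.

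In the other tissues the differences were smaller against their spread. In brain Col20a1 was -3.05, -3.12 and -2.64 in KI and -3.39, -3.32 and -3.35 in WT, a difference of 0.42 ± 0.16. Col6a3 differed there by 0.28 ± 0.15 and Col5a1 by -0.31 ± 0.18. Of the 37 chains 25 were above 0 in brain (39.6% of genes), but 15 without the brain of KI mouse C. In heart 24 of 32 were above 0 (38.1% of genes), and 20 without the heart of KI mouse B. Col27a1 was -2.33, -2.11 and -2.51 in KI hearts and -2.65, -2.51 and -2.82 in WT, a difference of 0.34 ± 0.16. Col4a3 differed by 0.29 ± 0.15 in heart, also without overlap, and Col23a1 by 0.52 ± 0.28 with overlap. Groups did not overlap for 3 of 32 chains in heart, all higher in KI (1.80% of genes), together with Col6a1 (0.15).

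In muscle 18 of 32 chains were above 0 (54.6% of genes), but 11 without KI mouse B, 11 of 33 without WT mouse E, 26 of 32 without KI mouse A and 25 of 32 without WT mouse D. The smallest p-values there belonged to Col23a1 (0.65 ± 0.34), Col22a1 (0.80 ± 0.51) and Col4a6 (-0.22 ± 0.15). Col4a6 alone did not overlap, with -1.52, -1.41 and -1.40 in KI and -1.18, -1.15 and -1.34 in WT (1.39% of genes were lower in KI without overlap). Its dimmer probe went the other way, with a difference of 1.30. Averaged over the 4 tissues of each mouse, Col20a1 differed by 0.31 ± 0.10 and Col22a1 by 0.48 ± 0.19, the only 2 of 39 chains at an unadjusted p under 0.05 (3.46% of genes). Their limma adjusted p was 0.982. A genotype effect that differed between tissues passed the threshold for no chain, and at an unadjusted p under 0.05 for Col26a1 alone (1.91% of genes), whose liver levels were well above background on 1 array only.

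Genes that make, cross-link, degrade or bind collagen differed between tissues in ways partly like the chains themselves. Of 26 synthesis and cross-linking genes tested between heart and liver, 14 were called higher in heart (27.6% of all genes) and 6 in liver (24.2%), with a median of 1.30 (all genes 0.07). Serpinh1, the chaperone of procollagen, lay between 4.63 and 4.93 in heart, 3.15 and 4.00 in muscle, 0.69 and 1.39 in liver and 0.11 and 0.65 in brain. That is the heart, muscle, liver, brain order also seen for Col4a1. Plod2, which modifies lysines for cross-links, exceeded liver in heart by 5.02 ± 0.33, with 4 of 6 livers well above background, and Loxl2 exceeded brain in heart by 4.93 ± 0.18. Lox, a cross-linking oxidase, was higher in muscle than in heart by 1.76 ± 0.44. It was well above background on no liver, and muscle was at least 4.79-fold higher than liver.

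Of 13 breakdown genes tested between heart and liver, 10 were called higher in heart (27.6% of all genes) and 1 in liver (24.2%), with a median of 2.76. Mmp3, a stromal protease, lay between -1.20 and 2.22 in heart and was well above background on no brain, and heart was at least 84.4-fold higher than brain. Timp4, a protease inhibitor, was low in liver only, between -6.75 and -3.06 and well above background on 1 of 6 arrays, and lay between 0.07 and 2.64 in the other 3 tissues. Fap, a protease of activated fibroblasts, was highest in muscle and exceeded liver there by 5.94 ± 0.31, and Mmp2, a gelatinase, exceeded brain in heart by 4.45 ± 0.28. Of 12 receptor genes, 8 were called higher in heart than in liver (27.6% of all genes) and none lower (24.2%). Antxr2, the anthrax toxin receptor that binds collagen, lay between 4.51 and 4.80 in heart and between -2.81 and -1.86 in brain. Itga11, an integrin for fibrillar collagen, exceeded liver in muscle by 5.37 ± 0.27, and Ddr1, a collagen receptor kinase, was lower in liver than in brain by 4.25 ± 0.15. Gp6, the platelet collagen receptor, was well above background on all 6 hearts, 2 muscles and no brain, and heart was at least 8.97-fold higher than brain.

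Of 6 listed fibroblast markers (Dcn, Lum, Pdgfra, Dpt, Fbln1, Mfap5), 5 were called higher in heart than in liver (27.6% of genes), 5 than in brain (28.8%) and 3 than in muscle (17.6%). Between liver and brain 3 were called higher in liver (31.9% of genes) and 3 in brain (30.2%), with a median of -0.06. Their summed level ranged over the hearts from 7.30 to 8.02 and over the muscles from 6.50 to 8.11. It was 5.75 to 6.79 in liver and 3.09 to 4.27 in brain. The part of fibroblast content in the tissue differences of the interstitial chains was not tested.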

How the data were processed

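Total RNA (Cy3, 1 colour) of 24 tissues was hybridised to Agilent mouse arrays. The deposited scanner files hold processed signal intensities that the authors extracted with Feature Extraction 12.0.3.1 (design grid mm9). The deposited series table holds a score per feature, the log2 processed signal standardised within each array over the features of that table (matched within 0.005). It was used as an alternative only. All columns used belonged to a sample.

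Here, log2 of the processed signal minus each array's 75th percentile was computed, outlier-flagged spots were left out and spots of a probe were averaged. Genes were named through RefSeq accessions (50.9% of 55681 probes, 99.0% of those with an mRNA accession), and the probe with the highest mean over 24 arrays stood for a gene. To be tested, a gene needed 1 compared group with its probe well above background on each of the 3 arrays. limma 3.58.1 in R 4.3.3 was used, with genotype fitted within each tissue (3 against 3 mice), the mean of the 4 tissues per mouse, an interaction, and tissues compared in a fit of 8 group means over all 24 arrays, without a mouse term. p-values were adjusted by Benjamini-Hochberg over all genes tested, with a threshold of 0.05, and tissue pairs also needed a 2-fold difference. The study's sources used here do not state its array test. Where no array of a tissue was well above background, the fold is a lower bound ("at least"), set by the lowest signal well above background or the probe's own signal. No probe was saturated. The number of arrays limits the precision, and the smallest exact p for 3 against 3 mice is 0.10.

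Replicate numbers are the same mouse across tissues, so tissues are paired by mouse, but KI and WT mice are not paired. Deviations from group means correlated at 0.0207 within a mouse and -0.0094 between mice over 11620 genes. Members, gene lists and tests were chosen with earlier results of these data known. Named chains were those called higher in 1 tissue than in each other, at most 6 per tissue, the 3 of smallest unadjusted p per genotype comparison, and 13 fixed ones; pathway genes were at most 4 per list with the largest range of tissue means. Other chains and marker genes were named after their values were seen, so that every chain is accounted for. Alternatives were normexp correction, quantile normalization, deposited values, no filter, the mean of all probes, array weights, slide and mouse blocks, and arrays left out. Steps were tested on simulated data. Python 3.11.15 and pandas 2.3.3 were used for tables.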

Additional observations from a re-analysis of the deposited data

How the results depend on the processing

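The sign of the named chains' differences and the count of 0 chains past the threshold for genotype held under every alternative run, with the exceptions below. With a replicate block for the mouse in a fit of all 24 arrays, 0 chains passed the genotype threshold in each tissue, as without it. The deposited values are standardised within each array, so that the size threshold of 1 means something else there. Fewer chains were called with them: 8 between heart and brain, 3 between heart and liver and 4 between heart and muscle. Between liver and brain it was 5, between muscle and brain 5 and between muscle and liver 7. Leaving out 1 array at a time gave 28 to 32, 22 to 25, 15 to 18, 25 to 28, 27 to 28 and 26 to 28 in the same order. Of the 50 differences of named chains 32 were called, and calls were lost, sign changes included, for 22 with the deposited values, 8 with normexp correction, 5 with the slide as a block, 6 in the KI arrays alone, 3 in the WT arrays alone, 2 with quantile normalization and 3 with the mean of all probes. Differences near the detection limit changed sign. Muscle minus brain became 0.70 for Col19a1 and 0.49 for Col6a4 with normexp background correction, and 0.026 for Col6a4 with the mean of all probes. With the mean of all probes, Col4a6 gave -0.081 for liver minus brain and 0.54 for KI minus WT in muscle, where its probes disagree. KI minus WT of Col4a6 in liver (0.06 as reported) became -0.037 with normexp correction, -0.046 with array weights and -0.073 without the liver of KI mouse C, and leaving out 1 array at a time gave -0.073 to 0.21. Beyond the probes of Col4a6, the cause was not tested. Arrays left out after seeing the data were those with bone or atrial transcripts. Low signal limits the chains not well above background, for which only bounds can be given.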
